A study of Mus musculus with 6 samples.

Results

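Transforming growth factor beta (TGF-beta) signalling was examined through 10 genes, taken by symbol: the ligand gene Tgfb1, the receptor genes Tgfbr1, Tgfbr2 and Tgfbr3, the SMAD genes Smad2, Smad3, Smad4 and Smad7, and the corepressor genes Ski and Skil. All 10 were found among the 18046 genes listed in each library. The cells were naive CD4+ T cells from spleens of C57BL/6 mice, labelled 3 weeks old, cultured for 3 days with activating CD3 and CD28 antibodies in a T helper 1 (Th1) polarizing setting. During activation 1 group received 20 µM LPC (3 libraries) and the other a vehicle (3 libraries), with strain, age, activation and polarization shared by both. The labels spell out neither LPC nor the vehicle. Whether replicates were separate animals or cultures is not stated, and p-values here reflect the spread among these samples, possibly technical spread alone.

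The TGF-beta ligand binds the type II receptor, which phosphorylates the type I receptor, and the type I receptor in turn phosphorylates SMAD2 and SMAD3. These join SMAD4, enter the nucleus and act on target genes, among them Smad7 and Skil, whose products damp the same signal. In CD4+ T cells the pathway is known for restraining Th1 differentiation and for its part in the formation of regulatory and Th17 cells. The comparison asked how transcripts of this pathway differed between Th1 cultures with LPC and with vehicle.

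Of the 10 genes, 1 passed the test: Smad7, the inhibitory SMAD gene, was lower with LPC. Skil and both signalling receptor genes, Tgfbr1 and Tgfbr2, also had all LPC libraries below all vehicle libraries, without passing. Over all genes tested, 13.7% passed (7.91% as lower), and 34.5% had separate groups (20.7% lower with LPC). The ligand gene Tgfb1, which was by far the most abundant of the 10, and Smad2, Smad3, Smad4, Ski and Tgfbr3 had overlapping groups. Values were FPKM (fragments mapped, scaled for exon length and for the library's mapped total). The test was limma on log2(FPKM + 1) across the 10138 genes that reached 1 FPKM in at least 3 libraries, as all 10 did, with Benjamini-Hochberg adjustment and a threshold of 0.05. All log2 changes are LPC minus vehicle on that scale, which understates the change of low genes.

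The libraries had a depth of about 19.00 to 19.50 M reads, an approximate figure read from the steps between low FPKM values, because no totals of reads came with them. The first principal component (58.35% of the variance) separated the groups. Vehicle libraries lay at 8.43 to 15.8 and LPC replicates 1 and 2 at -10.8 and -3.03. LPC replicate 3 lay farthest from vehicle, at -21.1. In it the 10% of tested genes with the longest transcripts lay at a median log2 deviation of -0.26 from the mean of all libraries, against -0.03 to 0.15 in the others. All 8 T cell markers checked reached 1 FPKM. Cd4 was at 143.9 to 177.1 FPKM with LPC and 185.3 to 205.2 FPKM with vehicle. Cd5 went the other way, at 291.6 to 300 FPKM with LPC and 262.2 to 282.8 FPKM with vehicle. The other T cell markers overlapped between the groups. Of the markers of B cells, NK cells, myeloid cells, neutrophils, platelets and erythroid cells, none reached 1 FPKM in any library. The CD8 marker Cd8b1 was at 10.57 to 12.55 FPKM with LPC and 13.35 to 14.19 FPKM with vehicle, while Cd8a stayed at or under 0.33 FPKM. Of 4 stromal markers only Pecam1 reached 1 FPKM, at 5.54 to 6.74 FPKM with LPC and 4.79 to 5.72 FPKM with vehicle. Col1a1, Col3a1 and Cdh5 stayed at or under 0.41 FPKM, so Pecam1 alone does not mark endothelial cells here. Platelets are rich in TGF-beta. The sum of 4 platelet markers was 0.39 to 0.45 FPKM with LPC and 0.49 to 0.56 FPKM with vehicle, but each of the 4 overlapped between groups. The B cell sum was also lower with LPC (0.60 to 0.95 against 1.15 to 1.21 FPKM). Sums of the NK cell, myeloid and erythroid markers were higher with LPC, for myeloid cells 0.76 to 0.88 against 0.55 to 0.63 FPKM. All of these sums rest on markers under 1 FPKM. The part of such cells in the results below was not tested.

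The 250 bases upstream of the annotated start are shown for the receptor pair, because Tgfbr1 and Tgfbr2 encode the 2 chains that carry the signal and both had separate groups. The sequences are from RefSeq on GRCm38.p6, in lower case and read 5′ to 3′ on the gene's strand, with capitals for the SMAD-binding letters CAGAC or their complement GTCTG. The Tgfbr1 stretch lies at chr4:47352972-47353221 on the plus strand and the Tgfbr2 stretch at chr9:116175364-116175613 on the minus strand.
Tgfbr1: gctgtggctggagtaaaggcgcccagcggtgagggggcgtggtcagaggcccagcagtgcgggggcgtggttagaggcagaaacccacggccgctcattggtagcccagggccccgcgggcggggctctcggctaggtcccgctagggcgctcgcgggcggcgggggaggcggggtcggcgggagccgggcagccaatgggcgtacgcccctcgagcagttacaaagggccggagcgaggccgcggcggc
Tgfbr2: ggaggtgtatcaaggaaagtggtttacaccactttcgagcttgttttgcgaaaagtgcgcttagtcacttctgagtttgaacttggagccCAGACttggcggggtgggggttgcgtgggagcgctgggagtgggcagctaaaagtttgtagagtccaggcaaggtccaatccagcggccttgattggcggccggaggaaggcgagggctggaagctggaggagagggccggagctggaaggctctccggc
Tgfbr2 held 1 match, starting at position -160 from the annotated start, and the Tgfbr1 stretch held none. The promoter table matched 5 of the 10 genes (Tgfb1, Tgfbr1, Tgfbr2, Smad3 and Ski) with 6 stretches, since Tgfbr1 has a second one inside the gene (chr4:47385966-47386215), which held 1 match at position -203. In all, 2 of the 6 stretches had such a match, while 42.2% of all 32851 promoters of that length in the table did. The palindrome GTCTAGAC was in none of the 6 and in 0.167% of all promoters. The Tgfbr1 stretch shown was 74.8% G and C with 29 CG pairs, and the Tgfbr2 stretch was 58.4% G and C with 12. These letters describe the windows and identify no binding site.

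Smad7 encodes the inhibitory SMAD that blocks the type I receptor and brings ubiquitin ligases to it. It lies on chromosome 18 at 75367365 to 75395935 (GRCm38.p6). Smad7 was listed at 3.56, 4 and 3.15 FPKM in LPC replicates 1 to 3, against 5.23, 5.42 and 5.09 FPKM in vehicle replicates 1 to 3. Every LPC library was below every vehicle library, by at least the gap between 4 and 5.09 FPKM. Smad7 averaged 3.57 ± 0.425 FPKM with LPC and 5.25 ± 0.166 FPKM with vehicle (SD, n = 3 each), and so fell by 32.0% (log2 change -0.45, SE 0.10, 95% interval -0.67 to -0.24, limma adjusted p = 0.0117). Of all tested genes, 13.7% passed the test in either direction and 7.91% passed as lower and 5.82% as higher with LPC, so 1 of 10 is close to the background. The call was missed without vehicle replicate 1 (limma adjusted p = 0.053, log2 change -0.46). It was also missed with no filter on low values (0.0626), for a reason that was not tested. Leaving out any of the other 5 libraries gave limma adjusted p-values from 0.00814 to 0.0488. In bulk RNA, fewer cells of a type and less RNA per cell cannot be told apart.

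**Figure D1:**
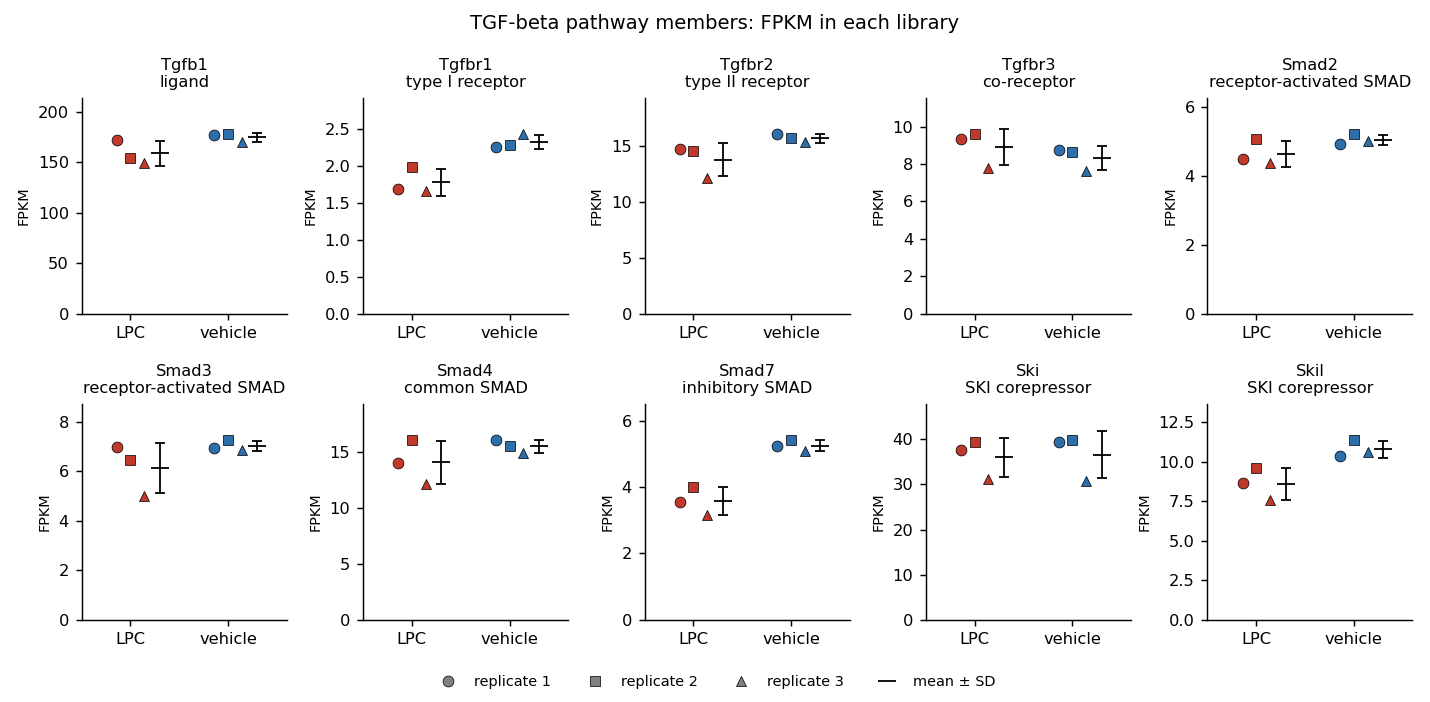
FPKM of the 10 genes in each library, LPC to the left of vehicle, with 1 marker shape per replicate number and a bar for mean ± SD (n = 3 each); each axis starts at 0. Smad7, Skil, Tgfbr1 and Tgfbr2 have separate groups, as had 34.5% of all tested genes (20.7% lower with LPC). Replicate 3 is the lowest LPC library in all 10 panels and the lowest vehicle library in 7.

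Tgfb1 encodes the ligand, which is secreted bound to its own latency peptide, and lies on chromosome 7 at 25687002 to 25705077 (GRCm38.p6, as for the positions that follow). It was listed at 172.7, 154.4 and 149.5 FPKM in LPC replicates 1 to 3, against 177.2, 178.3 and 170.1 FPKM in vehicle replicates 1 to 3. LPC replicate 1 lay within the vehicle range and the other LPC libraries below it. Tgfb1 averaged 159 ± 12.2 FPKM with LPC and 175 ± 4.45 FPKM with vehicle (SD, n = 3 each; log2 change -0.14, SE 0.09, 95% interval -0.34 to 0.05, limma adjusted p = 0.304). With each library's trend with GC share and transcript length removed, the log2 change was -0.21 and passed (limma adjusted p = 0.0358). Tgfb1 had the shortest transcript of the 10 (2175 bases) and the highest GC share (62.5%). The other isoform genes were low: Tgfb2 was at 0.12 to 0.27 FPKM with LPC and 0.03 to 0.11 FPKM with vehicle, and Tgfb3 at 0.49 to 0.91 FPKM with LPC and 0.62 to 0.70 FPKM with vehicle.

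Among the receptors, Tgfbr1 encodes the type I kinase that phosphorylates SMAD2 and SMAD3 (chromosome 4, 47353222 to 47414926). Tgfbr1 was the lowest of the 10 genes, at 1.68, 1.98 and 1.66 FPKM in LPC replicates 1 to 3, against 2.25, 2.28 and 2.43 FPKM in vehicle replicates 1 to 3. The groups did not overlap, but the difference missed the threshold (log2 change -0.26, SE 0.10, 95% interval -0.47 to -0.05, limma adjusted p = 0.0896). The lowest value corresponds to about 182 reads by the estimated depth, for which counting error alone has an SD of about 7.42%. Tgfbr1 passed without LPC replicate 2 (limma adjusted p = 0.0467), and its log2 change was -0.11 with GC and length trends removed.

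Tgfbr2 encodes the ligand-binding type II kinase (chromosome 9, 116087695 to 116175363). It was listed at 14.74, 14.54 and 12.10 FPKM in LPC replicates 1 to 3, against 16.09, 15.68 and 15.32 FPKM in vehicle replicates 1 to 3. The groups were apart, with LPC replicate 3 well below the other LPC libraries. The log2 change was -0.18 (SE 0.10, 95% interval -0.39 to 0.03, limma adjusted p = 0.235), and it was -0.09 without LPC replicate 3 and -0.06 with GC and length trends removed. Tgfbr3 encodes betaglycan, a co-receptor that presents ligand to the type II receptor and whose shed form can capture it (chromosome 5, 107106567 to 107289629). Tgfbr3 was the 1 gene of the 10 with a positive log2 change, at 9.34, 9.61 and 7.78 FPKM in LPC replicates 1 to 3, against 8.76, 8.66 and 7.61 FPKM in vehicle replicates 1 to 3. Replicate 3 was the lowest library in each group, and the ranges overlapped (log2 change 0.08, SE 0.11, 95% interval -0.14 to 0.31, limma adjusted p = 0.632). Its log2 change depended on single libraries, at 0.17 without LPC replicate 3, 0.031 without LPC replicate 2, 0.049 without LPC replicate 1 and 0.024 without vehicle replicate 3. With GC and length trends removed, Tgfbr3 was higher with LPC (log2 change 0.20, limma adjusted p = 0.0465). In the GENCODE annotation 4.54% of its exon bases are shared with another gene on the same strand, Gm43422, and none of the other members shares exon bases.

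Smad2 and Smad3 encode the SMADs that the type I receptor phosphorylates, and Smad4 their common partner. Smad2 lies on chromosome 18 at 76241090 to 76311748, Smad3 on chromosome 9 at 63646766 to 63757994 and Smad4 on chromosome 18 at 73634790 to 73703791. Smad2 was listed at 4.49, 5.08 and 4.38 FPKM in LPC replicates 1 to 3, against 4.95, 5.23 and 5.01 FPKM in vehicle replicates 1 to 3. Smad3 was listed at 6.96, 6.44 and 5.01 FPKM in LPC replicates 1 to 3, against 6.93, 7.26 and 6.86 FPKM in vehicle replicates 1 to 3. Smad4 was listed at 13.98, 15.99 and 12.14 FPKM in LPC replicates 1 to 3, against 16.03, 15.50 and 14.88 FPKM in vehicle replicates 1 to 3. For each of the 3 genes at least 1 LPC library lay within the vehicle range, and LPC replicate 3 was the lowest of all 6 libraries. Their log2 changes were -0.10 for Smad2 (95% interval -0.31 to 0.10), -0.18 for Smad3 (-0.42 to 0.06) and -0.14 for Smad4 (-0.36 to 0.09). The limma adjusted p-values were 0.495 for Smad2, 0.306 for Smad3 and 0.39 for Smad4. Without LPC replicate 3 these log2 changes were -0.07, -0.06 and -0.05 in the same order, and Smad2 had 0.056 with GC and length trends removed.

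Ski and Skil encode related corepressors, SKI and SnoN, that bind SMAD complexes on DNA and are broken down when the pathway is active. Ski lies on chromosome 4 at 155154075 to 155222535 and Skil on chromosome 3 at 31095058 to 31122923. Ski was listed at 37.65, 39.28 and 31.15 FPKM in LPC replicates 1 to 3, against 39.28, 39.82 and 30.64 FPKM in vehicle replicates 1 to 3. Replicate 3 was low in both groups, and the difference was small beside that spread (log2 change -0.02, SE 0.12, 95% interval -0.27 to 0.23, limma adjusted p = 0.935; 0.029 with median centring and 0.021 with GC and length trends removed). Skil was listed at 8.63, 9.58 and 7.56 FPKM in LPC replicates 1 to 3, against 10.35, 11.36 and 10.61 FPKM in vehicle replicates 1 to 3. Its groups were apart, and it averaged 8.59 ± 1.01 FPKM with LPC and 10.8 ± 0.524 FPKM with vehicle (SD, n = 3 each). Skil missed the threshold (log2 change -0.30, SE 0.10, 95% interval -0.52 to -0.08, limma adjusted p = 0.0673) and passed without LPC replicate 2 (0.0269). With GC and length trends removed its log2 change was -0.13 (limma adjusted p = 0.111).

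The 10 genes were long beside the tested genes, with a median transcript of 5639 bases against 2958, and 9 of 10 were longer than that tested median. Across tested genes the log2 change correlated with log2 length (r = -0.30) and with GC share (r = 0.26), over genes that are not independent. Skil and Tgfbr1 had the lowest GC shares of the 10 (41.0% each) and transcripts of 6717 and 5756 bases. LPC replicate 3 was the lowest LPC library for 10 of 10 genes and the lowest of all 6 libraries for 8 of 10. Vehicle replicate 3 was the lowest vehicle library for 7 of 10. Shares over all tested genes were not computed for these counts. With both trends removed, Smad7 kept a log2 change of -0.45 (SE 0.08, limma adjusted p = 0.00415), close to its value as deposited. In that fit 3 of the 10 genes passed, Smad7 and Tgfb1 lower and Tgfbr3 higher with LPC, where 23.1% of all genes passed. The median log2 change of the 10 genes was -0.16, against -0.04 over all tested genes, and 9 of 10 were negative, against 58.3% of tested genes, although Smad2 and Ski turned positive with GC and length trends removed and Ski with median centring. Groups were apart for 4 of 10 genes, all lower with LPC, against 20.7% of tested genes that were apart and lower and 34.5% in either direction.

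**Figure D2:**
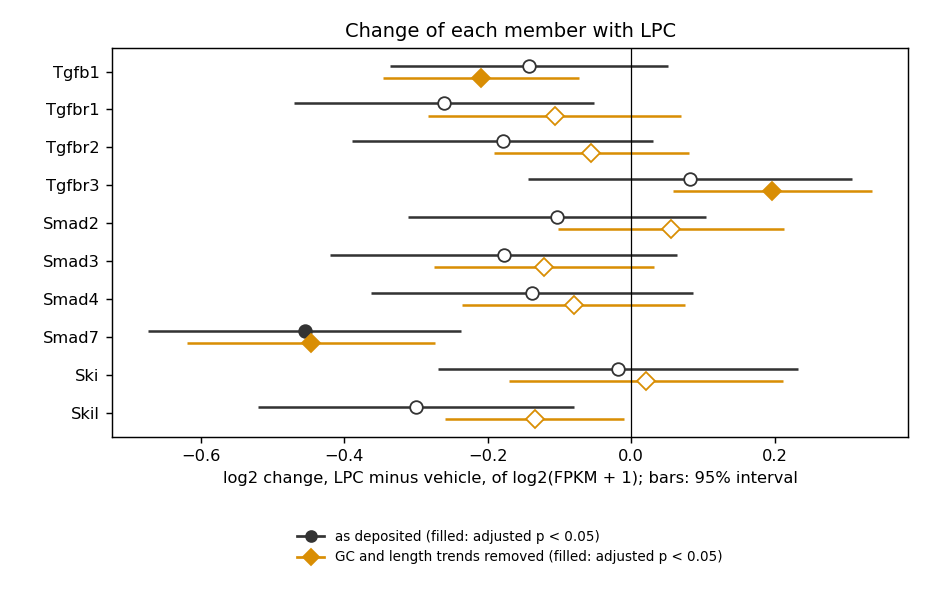
Log2 change of each of the 10 genes (LPC minus vehicle, log2(FPKM + 1) scale) with its 95% interval, from the values as deposited (circles) and after removal of each library's GC and length trends (diamonds); filled markers have a limma adjusted p under 0.05. Smad7 is near -0.45 in both fits, while Skil and Tgfbr1 lie nearer 0 in the second, where Tgfb1 and Tgfbr3 are filled.

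**Figure D3:**
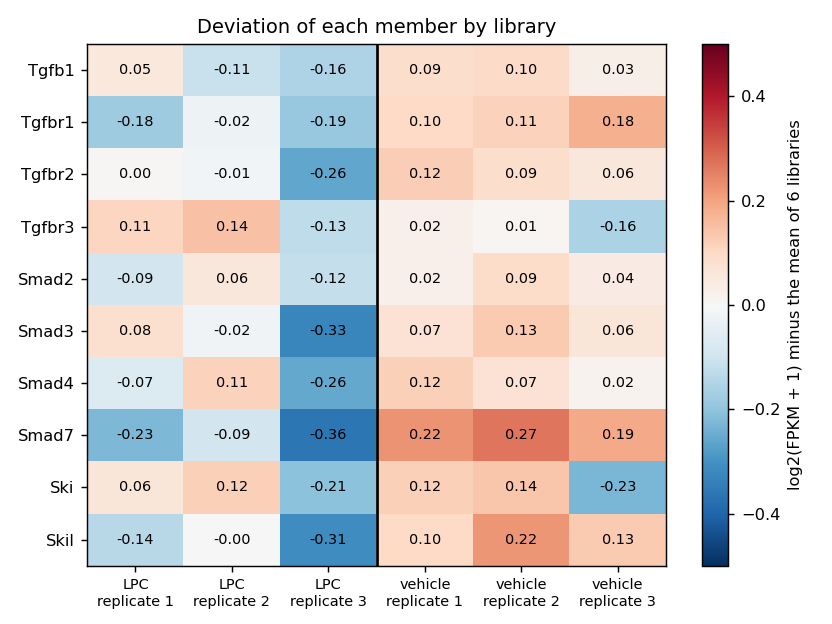
Deviation of each gene's log2(FPKM + 1) from its mean over the 6 libraries, with LPC libraries left of the black line and vehicle libraries right of it. The column of LPC replicate 3 is negative in all 10 rows, and the Smad7 row is negative in the 3 LPC libraries and positive in the 3 vehicle libraries.

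FPKM is scaled for length, so levels can be set beside each other across genes, though only roughly. Trends with GC share and transcript length, as described above, can remain in them. With LPC the mean levels ran, from high to low, Tgfb1, Ski, Smad4, Tgfbr2, Tgfbr3, Skil, Smad3, Smad2, Smad7 and Tgfbr1. With vehicle the order was Tgfb1, Ski, Tgfbr2, Smad4, Skil, Tgfbr3, Smad3, Smad7, Smad2 and Tgfbr1. With LPC the neighbours Smad4 and Tgfbr2, Tgfbr3 and Skil, and Smad3 and Smad2 overlapped in range. With vehicle the neighbours Tgfbr2 and Smad4, and Smad7 and Smad2, did. Smad7 overlapped with Smad2 with vehicle (5.09 to 5.42 and 4.95 to 5.23 FPKM) and below it in every LPC library (3.15 to 4 and 4.38 to 5.08 FPKM).

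A ratio of 2 genes within a library is free of that library's overall scale, but not of its trends with GC share and length. The ratios were computed on the deposited values only. GC shares were 41.0% for Skil and 55.6% for Ski, and 41.0% for Tgfbr1 and 49.6% for Tgfbr2. They were closer for Smad7 and Smad3 (56.9% and 53.1%) and for Tgfbr3 and Tgfbr2 (48.6% and 49.6%). With trends removed, the log2 changes of Tgfbr1 and Tgfbr2 were -0.11 and -0.06. Smad7 per 100 of Smad3 was 51.1, 62.1 and 62.9 in LPC replicates 1 to 3, against 75.5, 74.7 and 74.2 in vehicle replicates 1 to 3. Tgfbr1 per 100 of Tgfbr2, the type I to type II balance, was 11.4, 13.6 and 13.7 in LPC replicates 1 to 3, against 13.98, 14.54 and 15.86 in vehicle replicates 1 to 3. The LPC libraries were lower in both ratios, narrowly so in the receptor pair. Skil per 100 of Ski averaged 23.9 ± 0.815 with LPC and 29.8 ± 4.29 with vehicle (SD, n = 3 each). That vehicle mean includes 34.63 in replicate 3, where Ski was at 30.64 FPKM. Tgfbr3 per 100 of Tgfbr2 averaged 64.6 ± 1.39 with LPC and 53.1 ± 3.01 with vehicle (SD, n = 3 each). Each of the 4 ratios had separate groups, as had 36% of the ratios of all pairs of tested genes. The exact two-sided permutation test gave p = 0.1 for each, the smallest that 3 libraries against 3 allow, and 0.1 after Benjamini-Hochberg adjustment over the 4.

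**Figure D4:**
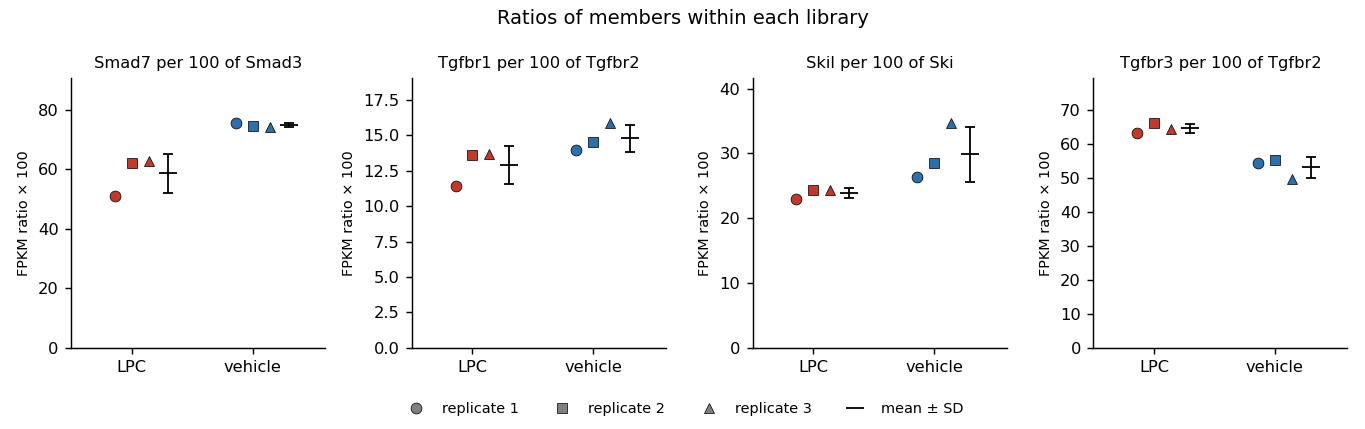
FPKM ratios of 4 gene pairs within each library, times 100, LPC left of vehicle, with a bar for mean ± SD (n = 3 each); axes start at 0. Tgfbr3 per 100 of Tgfbr2 is higher in the 3 LPC libraries, and the other 3 ratios are lower in them.

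Of 108 further genes of the pathway and its known targets, 74 were tested, of which 4 rose and 9 fell. That is 17.6% called, against 13.7% of all tested genes (7.91% lower and 5.82% higher), and the median log2 change was -0.14. The same shares of all tested genes stand beside the counts of each list below. Of 5 tested ligand, latency and activation genes (median -0.14, Tgfb1 included) none passed. The nearest was Itgav, the integrin alpha chain that helps release latent TGF-beta, with a log2 change of -0.32 (limma adjusted p = 0.0605). It was at 13.55, 14.30 and 10.81 FPKM in LPC replicates 1 to 3, against 16.57, 16.54 and 15.63 FPKM in vehicle replicates 1 to 3. Of 5 tested activin and bone morphogenetic protein (BMP) receptor and co-receptor genes (median -0.04), 1 rose and none fell. Eng, which encodes the co-receptor endoglin, rose to 2.19, 2.26 and 2.07 FPKM in LPC replicates 1 to 3, against 1.48, 1.31 and 1.29 FPKM in vehicle replicates 1 to 3 (log2 change 0.43, limma adjusted p = 0.0117). Eng missed the threshold without vehicle replicate 2 (0.051). Endoglin is also an endothelial gene, and the endothelial marker Cdh5 was at most 0.01 FPKM in any library while Pecam1 was as given above. Smad1 and Smad5, of the BMP branch, did not pass (log2 changes -0.03 and -0.23).

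Of 16 tested genes for turnover of SMADs and receptors (median -0.13), 1 rose and 1 fell. Usp11, a deubiquitinase that acts on the type I receptor, fell to 7.27, 7.15 and 5.95 FPKM in LPC replicates 1 to 3, against 10.48, 10.80 and 9.28 FPKM in vehicle replicates 1 to 3 (log2 change -0.52, limma adjusted p = 0.00725). Uchl5, another deubiquitinase of the pathway, rose (0.31, limma adjusted p = 0.0421). The SMAD ubiquitin ligase genes Smurf1 and Smurf2, partners of SMAD7, did not pass (-0.13 and -0.23, limma adjusted p = 0.416 and 0.144). Of 18 tested nuclear partners and corepressors (median -0.17), 1 rose and 2 fell. Runx1, a transcription factor that binds with SMADs, fell to 5.77, 6.05 and 4.67 FPKM in LPC replicates 1 to 3, against 7.59, 9.03 and 7.90 FPKM in vehicle replicates 1 to 3 (-0.50, limma adjusted p = 0.0113). The corepressor gene Tgif1 fell (-0.31, limma adjusted p = 0.0407) and the histone deacetylase gene Hdac1 rose (0.29, limma adjusted p = 0.0431). Of 14 tested adaptors and SMAD-independent genes (median -0.12), the kinase gene Rock1 fell (-0.33, limma adjusted p = 0.0441) and no other passed.

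**Figure D5:**
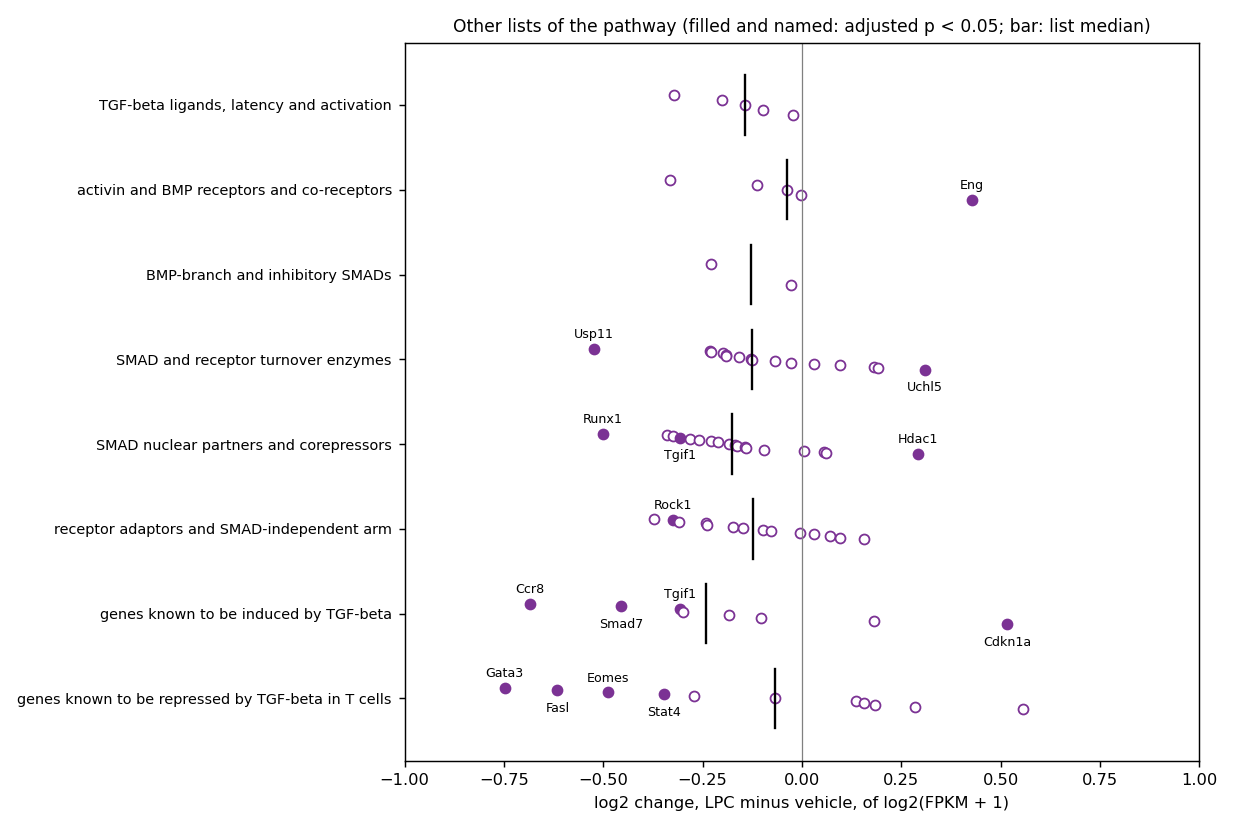
Log2 change (LPC minus vehicle) of the tested genes in 8 lists of the pathway, 1 point per gene and a bar at each list's median; filled, named points have a limma adjusted p under 0.05. Called genes lie on both sides of 0 in 3 of the lists, and the 4 called genes of the list repressed by TGF-beta are all lower with LPC. Over all tested genes, 7.91% were called lower and 5.82% higher.

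Of 8 tested genes known to be induced by TGF-beta in T cells or other cells, 1 rose and 3 fell (median -0.24). Over all tested genes, 7.91% passed as lower and 5.82% as higher with LPC, and no test of the list was run. Smad7 and Skil are in this list, and Smad7 and Tgif1 are among the falls. Ccr8, a chemokine receptor gene, fell to 4.86, 4.96 and 5.30 FPKM in LPC replicates 1 to 3, against 8.68, 8.65 and 8.78 FPKM in vehicle replicates 1 to 3 (log2 change -0.68, limma adjusted p = 8.6e-04). Cdkn1a, which encodes the cell cycle inhibitor p21, rose to 159, 153 and 175 FPKM in LPC replicates 1 to 3, against 123, 119 and 99.1 FPKM in vehicle replicates 1 to 3 (0.52, limma adjusted p = 0.00673). Pmepa1, a target whose product binds SMADs, did not pass (0.18, limma adjusted p = 0.256), and Itgae, Foxp3 and Ldlrad4 stayed under the filter.

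Of 11 tested genes known to be repressed by TGF-beta in T cells, 4 fell and none rose (median -0.07). Here too the shares over all tested genes were 7.91% lower and 5.82% higher with LPC, and the list was not tested as a set. Gata3 fell (-0.75, limma adjusted p = 0.00171), as did the death ligand gene Fasl (-0.62, 0.00188), the T-box factor gene Eomes (-0.49, 0.0146) and Stat4, which relays interleukin-12 signals (-0.35, 0.03). The other genes of the list, among them Tbx21, Ifng, Il2, Gzmb and Myc, did not pass. Of the 13 called genes beyond the 10, 5 passed in every fit that left out 1 library: Usp11, Cdkn1a, Ccr8, Gata3 and Fasl. The other 8 missed the threshold in 1 or more of these fits. Eng and Runx1 missed it without vehicle replicate 2 (0.051 and 0.0536). Eomes missed it without LPC replicate 1 (0.0566) and without vehicle replicate 2 (0.055) or 3 (0.0539). Uchl5, Hdac1, Rock1 and Stat4 each passed in 1 of 6 such fits and Tgif1 in 2 of 6, with the highest limma adjusted p at 0.18 for Uchl5, 0.157 for Hdac1, 0.182 for Rock1, 0.132 for Stat4 and 0.179 for Tgif1. Hdac1 also missed it with quantile normalization (0.0858) and Tgif1 with median centring (0.0581), and Rock1 with GC and length trends removed (0.0549). With no filter on low values no gene of the turnover, nuclear partner or adaptor lists passed, Usp11 included. In that fit 2 genes passed in each of the lists of genes induced and repressed by TGF-beta.

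The genes whose pattern over the 6 libraries was most like that of Smad7, by Pearson correlation of log2(FPKM + 1), were Gypc (r = 1.00) and Heca (r = 0.999). Gypc, which encodes a red cell membrane glycoprotein also present on leukocytes, was at 99.9, 109 and 90.0 FPKM in LPC replicates 1 to 3, against 142, 146 and 138 FPKM in vehicle replicates 1 to 3. As many as 525 tested genes had a correlation above 0.95 with Smad7 over these 6 points, which share libraries and the group difference. Among the 10 genes, Skil (r = 0.97) and Tgfbr1 (r = 0.96) were the most like Smad7 and Tgfbr3 the least (r = -0.08).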

How the data were processed

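Per the labels' protocols, the authors sequenced RNA on a BGISEQ-500, used Bowtie2 against GRCm38 and computed FPKM with RSEM. Tool versions and strand handling: not given in the sources used here. All deposited FPKM values are rounded to 2 decimals, 1 file per library, for the same 18046 genes. RSEM shares out reads that match several genes by estimate, which can touch related genes such as Smad2 and Smad3. FPKM is relative to each library's total. Coordinates came from the RefSeq gene table of GRCm38.p6 (99.3% of identifiers matched). Through the identifier 24 symbols were replaced that were date-like, missing or duplicated. Lengths and GC shares came from GENCODE transcripts (98.8% of tested genes).

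Values were transformed to log2(FPKM + 1) from the deposited files and fitted with limma 3.58.1 (R 4.3.3, trend, group as the single term) over 10138 genes. The fit was tested on simulated data. Whole reads were not recovered, so no count test was run; intervals of counting error rest on the estimated depth (3 libraries per group). Alternatives were a pseudocount of 0.1, no filter, a mean FPKM of 5 or more, quantile normalization, median centring, removal of GC and length trends (splines with 4 degrees of freedom), a replicate block and leaving out each library. The members, the 8 lists and the tests were chosen with earlier results of these data known. All 10 members are named; in the lists, called genes (up to 4 per list by size) are named, and Itgav, Smad1, Smad5, Smurf1, Smurf2, Pmepa1 and other uncalled genes were chosen after their values were seen. One gene of the lists is not reported here and was left out of its list's counts. The 4 ratios were not part of the tests set down at the start.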

Additional observations from a re-analysis of the deposited data

How the results depend on the processing

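Over all tested genes 1392 of 10138 passed (13.7%). With no filter 464 of 16899 passed (2.75%), and with GC and length trends removed 2312 of 10018 (23.1%). With the replicate block 2841 of 10138 passed, and with both 2829 of 10018. Without single libraries 513 to 2026 passed. Of the 1392 calls 42.4% were higher with LPC, as were 53.1% of the calls with median centring. Of the 10 members 1 passed; 0 did with no filter or with a mean FPKM of 5 or more, which leaves out Smad7, Tgfbr1 and Smad2. With GC and length trends removed 3 passed, with the replicate block 2, with both 3, and 0 to 3 without single libraries (0 without vehicle replicate 1, 3 without LPC replicate 2). Whether the replicate numbers pair the libraries is not stated, and the values do not settle it. Deviations of same-numbered libraries correlated for numbers 2 and 3 (r = 0.562 and 0.406) but hardly for number 1 (0.0182). Vehicle replicate 1 correlated best with LPC replicate 3 (0.0645), while every other library correlated best with its own number in the other group. The block is therefore given only here.

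Smad7 had a log2 change of -0.45 with no filter (limma adjusted p = 0.0626) and -0.52 to -0.39 without single libraries. Tgfb1 had -0.21 with GC and length trends removed, with or without the replicate block, and -0.20 to -0.10 without single libraries. Tgfbr3 had 0.20 in both of those trend fits, and Smad2 had 0.056 in both. Skil kept -0.30 with the replicate block (limma adjusted p = 0.0129) and had -0.37 to -0.22 without single libraries, and Tgfbr1 had -0.31 to -0.23. Ski turned positive with median centring (0.029) and in both trend fits (0.021), and ranged from -0.14 to 0.080 without single libraries. The cause of these moves was not tested. The block changed no other call among the members.

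Calls in the ligand list numbered 0; 1 in both trend fits and with the replicate block, and 0 to 1 without single libraries. The activin and BMP receptor list had 1; 2 with no filter, 0 with a mean of 5 or more, 2 with the block, 0 to 2 without single libraries. The turnover list had 2; 0 with no filter, 1 without replicate 3 of either group (chosen after seeing the data), 1 to 2 without single libraries. Nuclear partners had 3; 0 with no filter, 7 with the replicate block, 6 with the block and trends removed, 0 to 4 without single libraries. Adaptors had 1; 0 with no filter, 0 with trends removed, 4 with the replicate block, 2 with both, 0 without replicate 3 of either group, 0 to 3 without single libraries. TGF-beta-induced genes had 4; 2 with no filter, 2 to 5 without single libraries. TGF-beta-repressed genes had 4; 2 with no filter, 7 with trends removed, 7 with the replicate block, 8 with both, 2 to 5 without single libraries. Calls over all tested genes moved in these fits too, as given above. The BMP-branch SMAD list had 0 in every fit run. Depth limits Tgfbr1 and genes under 1 FPKM most.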

Other observations

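Among pathway genes under the filter on low values, Bambi, which encodes a decoy receptor without a kinase domain, was at 0.42, 0.41 and 0.38 FPKM in LPC replicates 1 to 3, against 0.60, 0.64 and 0.60 FPKM in vehicle replicates 1 to 3. It passed when no filter was applied (log2 change -0.20, limma adjusted p = 0.0413). It was the 1 gene to pass of 34 under the filter in that fit, where 464 of 16899 genes (2.75%) passed, so that count is near the background. Itgb8, which encodes the beta chain of a TGF-beta-activating integrin, was at 0.53, 0.57 and 0.49 FPKM in LPC replicates 1 to 3, against 0.76, 0.92 and 0.63 FPKM in vehicle replicates 1 to 3, and did not pass in that fit (-0.21, limma adjusted p = 0.139). Smad6, the other inhibitory SMAD gene, was at 0.04 to 0.06 FPKM with LPC and 0.02 to 0.06 FPKM with vehicle.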
